A study of Mus musculus with 4 samples.

Results

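The axon guidance ligands and receptors are the semaphorins with their plexin and neuropilin receptors, the Slits with the Robo receptors, the netrins with the Unc5 receptors, and the ephrins with the Eph receptors. They were picked out by gene symbol, and no expression value entered the rule. The members were, however, chosen with earlier results of these data known. Of the 21925 symbols in the tables, 67 belong to these families. Epha5 was listed on more than 1 row and is described apart, which left 66 members of 21862 symbols that were listed once. RNA was sequenced from N31 NPCs, a mouse neural progenitor cell line that was made from iPSCs and carries the reprogramming factors Oct4, Klf4, c-Myc and Sox2 under a Dox-inducible promoter. Control cells and cells that expressed the short hairpin RNA shSrf#1 against Srf were each grown, in medium lacking EGF and bFGF, on collagen-coated matrices of 0.5 kPa (soft) or 12 kPa (stiff). Both groups are the same line, the hairpin was introduced with a retrovirus, and whether control cells carried a control vector is not given in the sources used here. Each of the 4 conditions had 1 library, so the values carry no replicate error, and every comparison is between single libraries without a test or p-value.

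Guidance cues are secreted or membrane-bound proteins that steer growing axons and migrating cells by attraction or repulsion. Their receptors signal to the actin cytoskeleton, and many of them also act in neural progenitors, blood vessels and mesenchyme. Srf is a transcription factor that drives actin and other cytoskeletal genes together with its cofactor Mkl1, which is released from actin monomers and enters the nucleus when actin polymerizes.

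The deposited unit is FPKM, the reads of a gene divided by its transcript length and by the mapped reads of the library, so levels can be set side by side between genes. In the pairs of values below, the first is from the 0.5 kPa and the second from the 12 kPa matrix. Srf had an FPKM of 34.4 and 35.6 in control cells and 16.2 and 17.4 after knockdown, a log2 ratio of -1.09 and -1.03. The estimated depth lay between 24100000 and 62300000 reads, and 3 reads on a transcript of 3000 nucleotides then correspond to an FPKM of at most 0.0444. For the members used in ratios, reads alone give a standard error of the log2 ratio between 0.0119 and 0.208, which covers neither culture nor library preparation. Of 9 neural progenitor markers, 4 (Nes, Sox2, Pax6 and Vim) were above an FPKM of 2 in all libraries, and Sox1, Hes5 and Olig2 were at 0 throughout. Nes, an intermediate filament gene of neural progenitors, had an FPKM of 51.6 and 36.1 in control and 16.4 and 15.5 in knockdown cells. Sox2, which is also one of the inducible factors, had 4.29 and 5.49 in control and 19.1 and 20.4 in knockdown cells, and Pax6 had 2.62 and 3.46 in control and 6.49 and 6.78 in knockdown cells. By the rule used below for guidance genes, 1 of the 4 was thus lower and 2 were higher.

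Guidance genes of every family were expressed. Of the 66 members, 41 exceeded in each of the 4 libraries the FPKM of 2 that was the minimum for ratios, and 22 stayed under it in all of them. The remaining 3, Sema4a, Sema4d and Sema6d, passed in some libraries, where Sema4a lay between 1.28 and 2.03. The 41 members spanned an FPKM of 2.26 to 91.3 with a median of 19.6. Plxnb2, a receptor of class 4 semaphorins, was the highest member in 3 of the 4 libraries, with an FPKM of 77.9 and 80.5 in control and 87.7 and 91.3 in knockdown cells. In control NPCs on the stiff matrix the secreted semaphorin Sema3f was higher, at 86.9. At the other end, 9 members stayed under an FPKM of 0.1 in every library, among them Slit1, Robo3, Unc5d and Plxnb3, and the EphB receptor Ephb1 and the endothelial Robo receptor Robo4 were at 0 throughout. Each pathway therefore had ligands and receptors in the same cultures, with Slit2 facing Robo1 and Robo2, Ntn1 facing Unc5b and Unc5c, and ephrins facing 3 EphA and 3 EphB receptors above the minimum.

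**Figure D1:**
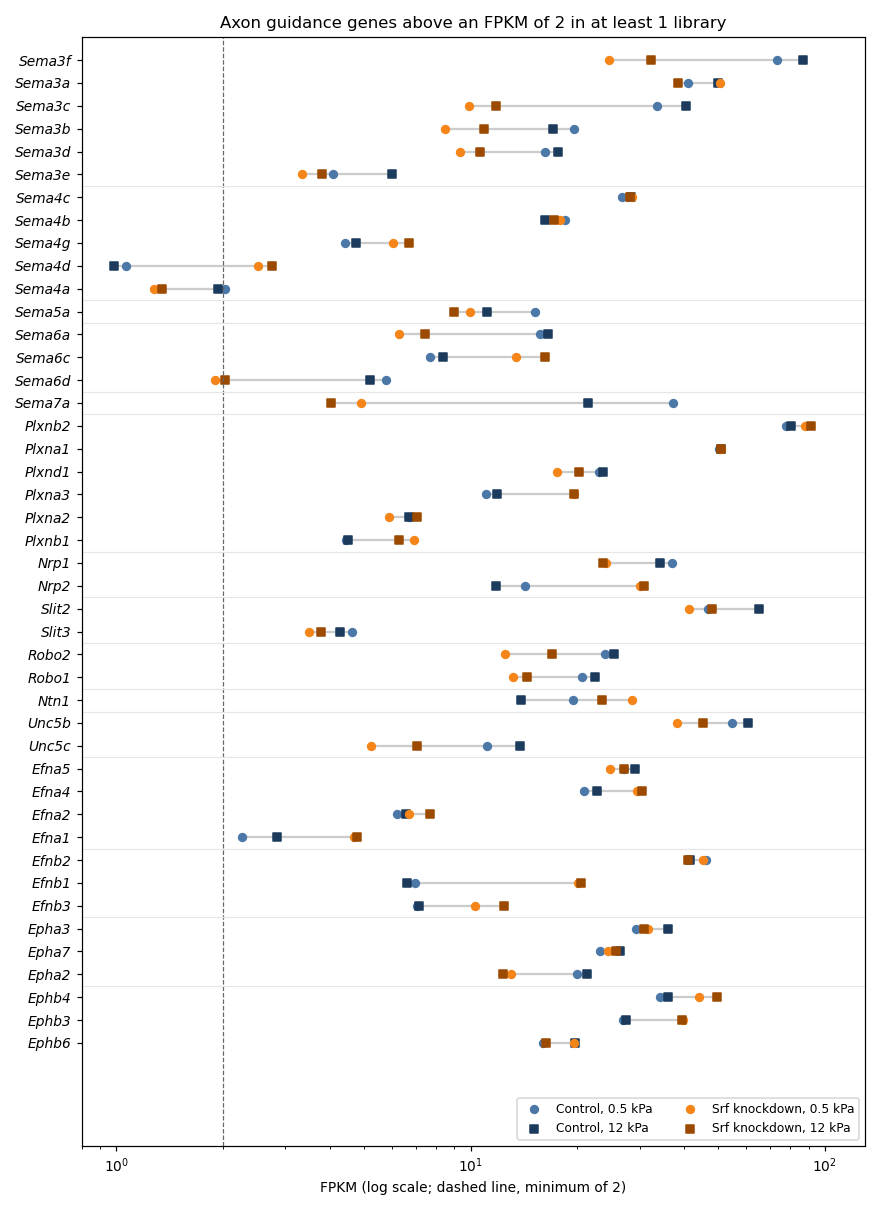
FPKM (log axis) of the 44 guidance genes above an FPKM of 2 in at least 1 library, ordered by family with the highest mean first; each gene has 1 point per library, circles for 0.5 kPa and squares for 12 kPa, blue for control and orange for Srf knockdown, and the grey line spans its range. Sema7a has the widest spread of the genes above the minimum in all libraries, from 4.03 to 37.4, and the points of Plxnb2 lie close together.

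Guidance genes differed between Srf-knockdown and control NPCs in both directions. A member was counted as lower or higher when its log2 ratio passed 1.5-fold in the same direction on both matrices, where the ratios share no library. By this rule 9 of the 41 members (22.0%) were lower in Srf-knockdown NPCs, beside 6.17% of all 10489 genes above the minimum. These were the semaphorins Sema3b, Sema3c, Sema3d, Sema3f, Sema6a and Sema7a and the receptors Unc5c, Robo1 and Epha2. Another 5 (12.2%) were higher, beside 6.63% of all genes, namely the ephrins Efna1 and Efnb1, the semaphorin Sema6c and the receptors Nrp2 and Plxna3. When the ratios were centred among genes of like GC content, 10 members were lower and 3 higher, and the shares of all genes were not computed for this setting. Sema3d, Plxna3 and Sema6c were then no longer counted, and Plxnd1 and Unc5b were added to the lower ones. The median log2 ratio of the members was -0.03 on the soft and -0.11 on the stiff matrix, beside 0.01 for all genes on either. Their median absolute log2 ratio was 0.55 and 0.50, beside 0.28 and 0.29 for all genes.

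**Figure D2:**
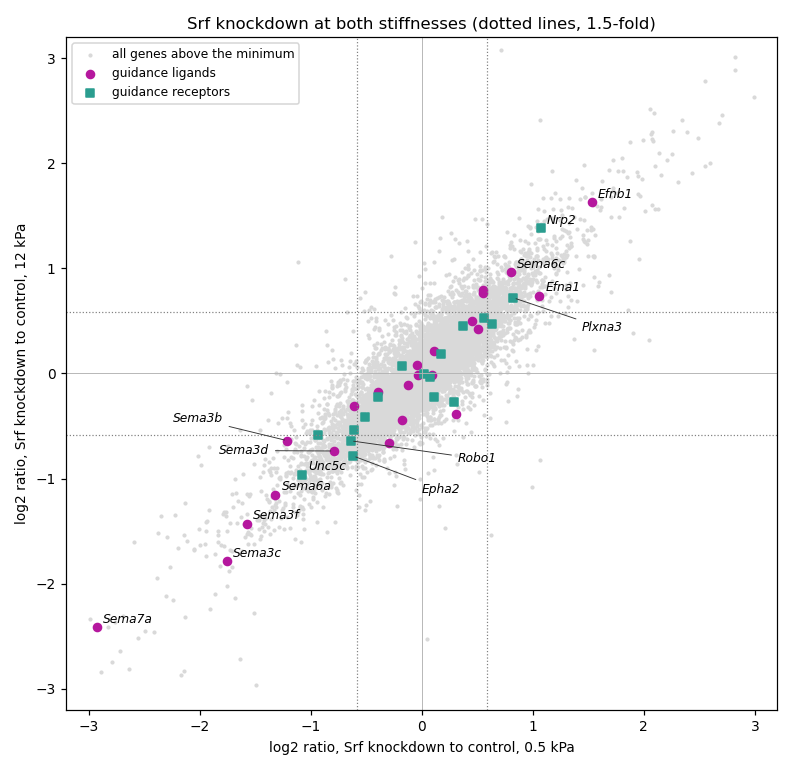
Log2 FPKM ratio of Srf-knockdown to control NPCs at 0.5 kPa (x axis) and 12 kPa (y axis) for the 41 guidance genes above the minimum, with ligands as circles and receptors as squares, over all genes above the minimum in grey; 7 of these lie outside the axes. The 14 named genes lie past the dotted 1.5-fold lines on both matrices, 9 below and 5 above.

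Class 3 semaphorins, the secreted ligands that act through neuropilins and plexins, were the family in which most members were lower. Of 7 listed, 6 were above the minimum, and 4 of those were lower and none higher. Sema3f had an FPKM of 73.4 and 86.9 in control and 24.7 and 32.3 in knockdown cells, or 2.98- and 2.69-fold lower. For Sema3c, which acts in cardiac outflow tract and vessel development, the FPKM was 33.5 and 40.7 in control and 9.93 and 11.8 in knockdown cells, 3.38- and 3.45-fold lower. Sema3b stood at 19.6 and 17.0 in control and at 8.47 and 10.9 in knockdown cells, a difference of 2.31-fold on the soft and 1.56-fold on the stiff matrix. In these 3 genes both knockdown libraries lay under both control libraries. The same was true of Sema3d, with 16.2 and 17.7 in control and 9.36 and 10.6 in knockdown cells. Here and below, the share of all genes whose control and knockdown values separate in this way was not computed. The libraries of a population differ in matrix and are not replicates. Sema3a, the collapsing factor of growth cones, had 41.0 and 50.1 in control and 50.7 and 38.4 in knockdown cells, and here the populations overlapped. Its share of the summed FPKM of class 3 was 21.8% and 22.9% in control but 47.5% and 35.6% in Srf-knockdown NPCs, so that the most abundant semaphorin was Sema3f in control and Sema3a in knockdown cells. Sema3e, the ligand that binds Plxnd1 without a neuropilin, had an FPKM of 4.09 and 6.01 in control and 3.34 and 3.81 in knockdown cells, and passed 1.5-fold on the stiff matrix only.

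Semaphorins anchored in the membrane were divided. Sema7a, a GPI-anchored semaphorin that also binds integrins, was the member with the largest log2 ratio, with an FPKM of 37.4 and 21.5 in control and 4.91 and 4.03 in knockdown cells, or 7.61- and 5.34-fold lower. It lies on chromosome 9 of mm10 from 57939596 to 57962865. The class 6 semaphorins, transmembrane ligands of class A plexins, went in opposite directions. Sema6a had an FPKM of 15.7 and 16.6 in control and 6.30 and 7.44 in knockdown cells. For Sema6c the values were 7.69 and 8.34 in control and 13.4 and 16.3 in knockdown cells. The ratio of Sema6c to Sema6a within a library was therefore 0.489 and 0.504 in control and 2.13 and 2.18 in knockdown cells. Sema6d was above the minimum in both control libraries, at 5.76 and 5.21, and at 1.902 and 2.02 in knockdown cells. The reverse was seen for Sema4d, a ligand of Plxnb1, which had an FPKM of 1.07 and 0.987 in control and 2.51 and 2.75 in knockdown cells. None of the 3 class 4 semaphorins above the minimum in all libraries passed the rule, with log2 ratios between -0.05 and 0.50. These were Sema4b, Sema4c and Sema4g, transmembrane ligands with an FPKM between 16.2 and 28.6 for the first pair and between 4.43 and 6.72 for Sema4g. Sema5a, a transmembrane semaphorin with thrombospondin repeats, had an FPKM of 15.2 and 11.1 in control and 9.96 and 8.96 in knockdown cells, and passed 1.5-fold on the soft matrix only.

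Among the receptors of semaphorins, Nrp2 and Plxna3 were higher in Srf-knockdown NPCs, and none was counted as lower. Nrp1, the coreceptor bound by Sema3a and by VEGF, had an FPKM of 37.0 and 34.3 in control and 24.2 and 23.7 in knockdown cells, which passed 1.5-fold on the soft matrix only. Nrp2, the coreceptor preferred by Sema3f, was 14.3 and 11.8 in control and 30.04 and 30.8 in knockdown cells, 2.103- and 2.61-fold higher. The summed FPKM of both neuropilins stayed between 46.2 and 54.5 in the 4 libraries, while the ratio of Nrp2 to Nrp1 was 0.386 and 0.344 in control and 1.24 and 1.30 in knockdown cells. The order of the neuropilins was thus exchanged. Among the 6 plexins above the minimum, Plxna3, which pairs with neuropilins, was the one past the rule, with 11.1 and 11.9 in control and 19.6 and 19.6 in knockdown cells. Plxna1, the partner of neuropilins in Sema3a signalling, was the most even member, with an FPKM between 50.4 and 51.1 in the 4 libraries. Plxnd1, the receptor of Sema3e, had 23.0 and 23.6 in control and 17.5 and 20.2 in knockdown cells. Its values did not overlap, but it did not pass the rule. Plxna2 lay between 5.90 and 7.06, with overlap. Plxnb1, the receptor of Sema4d, had 4.45 and 4.52 in control and 6.90 and 6.29 in knockdown cells. The log2 ratios of the 6 lay between -0.39 and 0.82, and the summed FPKM of all 9 plexins was 174 and 180 in control and 190 and 197 in knockdown cells.

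In the Slit and Robo pathway, the receptors had larger ratios than the ligands. Slit2, a secreted repellent of commissural axons, had an FPKM of 46.7 and 65.2 in control and 41.4 and 47.9 in knockdown cells, where the populations overlapped. Slit3 was low, with 4.61 and 4.29 in control and 3.51 and 3.79 in knockdown cells, without overlap and under 1.5-fold. Robo1 had 20.6 and 22.5 in control and 13.2 and 14.4 in knockdown cells, 1.56-fold lower on each matrix. Robo2 had 23.9 and 25.5 in control and 12.5 and 17.0 in knockdown cells. Both Robo receptors were lower in both knockdown libraries than in either control library, although the log2 ratio of Robo2 on the stiff matrix, -0.58, fell just short of 1.5-fold. With libraries scaled to their 75th percentile this ratio was -0.59 and Robo2 was counted as lower too. With centring by GC content it was -0.37 and Robo2 was not counted. Robo1 and Robo2 are neighbours on chromosome 16 of mm10, between 72027518 and 75447443.

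Netrin and its repulsive receptors differed in opposite directions. Ntn1, the secreted netrin that attracts or repels depending on the receptor, had an FPKM of 19.5 and 13.9 in control and 28.6 and 23.6 in knockdown cells, a log2 ratio of 0.55 and 0.76 that passed 1.5-fold on the stiff matrix only. Unc5c, a netrin receptor for repulsion, stood at 11.1 and 13.8 in control and at 5.25 and 7.08 in knockdown cells, 2.11- and 1.95-fold lower. Unc5b, a netrin receptor also found on vessels, was 54.6 and 60.6 in control and 38.4 and 45.4 in knockdown cells, which did not reach 1.5-fold. For all 3 genes the control and knockdown values did not overlap, which is a description of single libraries without a share of all genes beside it. Dcc, the receptor of netrin attraction, was listed at no more than 0.00890 in any library, and its relative Neo1 had an FPKM between 30.4 and 35.1.

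Ephrins were higher or level in Srf-knockdown NPCs, and no ephrin was counted as lower. Efnb1, a transmembrane ephrin on the X chromosome that signals in both directions between cells, had an FPKM of 6.96 and 6.62 in control and 20.1 and 20.5 in knockdown cells, 2.89- and 3.09-fold higher. Efna1, a GPI-anchored ephrin, was low, with 2.26 and 2.85 in control and 4.70 and 4.77 in knockdown cells. It rested on an estimated 94.1 reads in control NPCs on the soft matrix. Efnb2, the most abundant ephrin and the ligand of Ephb4, was level, with 46.3 and 41.5 in control and 45.2 and 41.1 in knockdown cells. Efnb3, with 7.05 and 7.14 in control and 10.3 and 12.4 in knockdown cells, and Efna4, with 20.9 and 22.7 in control and 29.6 and 30.4 in knockdown cells, had control and knockdown values apart from each other but did not pass the rule. Efna2 differed less, with 6.19 and 6.59 in control and 6.70 and 7.66 in knockdown cells, and Efna5 overlapped between the populations within an FPKM of 24.8 to 29.2. The 7 ephrins above the minimum had log2 ratios between -0.12 and 1.63. Of 6 Eph receptors above the minimum, Epha2, which binds ephrin-As, was the one past the rule, with an FPKM of 20.02 and 21.3 in control and 13.0 and 12.4 in knockdown cells. Ephb4 was the highest EphB receptor, with 34.3 and 36.1 in control and 44.3 and 49.5 in knockdown cells, under 1.5-fold. Ephb3, another receptor of ephrin-Bs, had 27.0 and 27.5 in control and 39.9 and 39.6 in knockdown cells, with no overlap. Epha3 and Epha7, receptors of ephrin-As, lay between 29.4 and 36.1 and between 23.2 and 26.4, and the kinase-dead Ephb6 between 16.0 and 19.8, all overlapping. The other 4 Eph receptors, that is without Epha2 and Ephb4, had log2 ratios between -0.27 and 0.56. Neither Epha2 nor Efna1 was counted when a pseudocount of 1 was added before taking ratios.

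Summed over a family, the balance between pathways differed between the populations. Class 3 semaphorins made up a summed FPKM of 188 and 219 in control and 107 and 108 in knockdown cells, 1.77- and 2.03-fold lower. The Robo receptors summed to 44.5 and 47.9 in control and 25.8 and 31.4 in knockdown cells, and the Unc5 receptors to 66.0 and 74.6 in control and 43.7 and 52.6 in knockdown cells. The ephrin-Bs went the other way, from 60.3 and 55.3 in control to 75.7 and 74.0 in knockdown cells, as did the EphB receptors, from 77.8 and 83.7 to 104 and 106. All ligands together summed to 514 and 537 in control and 420 and 427 in knockdown cells. All receptors together summed to 490 and 519 in control and 490 and 514 in knockdown cells. This near-level sum holds lower Robo and Unc5 sums beside higher EphB and plexin sums. A sum is led by its most abundant members. The median log2 ratio was -0.05 and -0.11 over the ligands above the minimum, and 0.05 and -0.13 over the receptors.

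**Figure D3:**
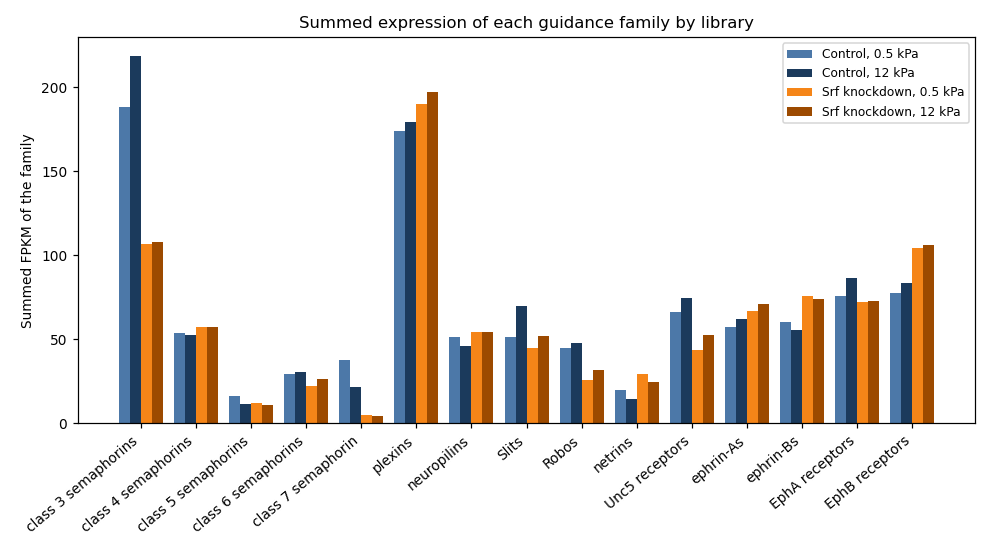
Summed FPKM (linear axis from 0) of each guidance family, with 1 bar per library: blue bars are control and orange bars Srf knockdown, lighter for 0.5 kPa and darker for 12 kPa. The class 3 semaphorins stand at 188 and 219 in control and at 107 and 108 in knockdown cells, and the single class 7 semaphorin at 37.4 and 21.5 against 4.91 and 4.03, while the plexins lie between 174 and 197 throughout.

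Some members lie side by side in the genome, and adjacent members did not always have like ratios. Sema3b and Sema3f, both lower, are neighbours on chromosome 9 of mm10 between 107597674 and 107710475, with a gap of 72.3 kb. Sema3d, Sema3a and Sema3e lie in this order on chromosome 5 of mm10 from 12383161 to 14256689. Of these Sema3d was lower on both matrices, whereas the log2 ratio of Sema3a was 0.30 on the soft and -0.38 on the stiff matrix. The ephrin-A genes Efna1, Efna3 and Efna4 share a stretch of chromosome 3 of mm10 from 89271730 to 89338028, and Efna1 and Efna4 had log2 ratios between 0.42 and 1.06 on either matrix, while Efna3 stayed under the minimum with an FPKM between 0.944 and 1.28.

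Promoters were searched for the CArG box, the palindromic element bound by Srf, because some members had lower expression when Srf was knocked down. RefSeq promoter windows of GRCm38, from 250 bases before to 50 after a start site, were at hand for 57 members, with 73 windows. An exact match was found in 2 of the 73 windows (2.74%), beside 1.63% of all 32851 windows of the same length. They belonged to Robo1, at -60 to -51 from a start inside the gene, and to Sema4d, at -231 to -222 from 1 of its 3 starts. With at most 1 mismatch, a setting chosen after seeing the data, 8 windows (11%) held a match, beside 21.1% of all windows. Epha2 was the other lower member with such a match, beginning at -237 and at -66 from its start. Windows were at hand for 6 of the 9 lower and for all 5 higher members, and none of the higher members held a match of either kind. The bases before these starts are shown so that the matches can be read in place, 5′ to 3′ on the strand of the gene, with the matches in capitals.
Robo1, exact, plus strand of chr16:72662899-72663148: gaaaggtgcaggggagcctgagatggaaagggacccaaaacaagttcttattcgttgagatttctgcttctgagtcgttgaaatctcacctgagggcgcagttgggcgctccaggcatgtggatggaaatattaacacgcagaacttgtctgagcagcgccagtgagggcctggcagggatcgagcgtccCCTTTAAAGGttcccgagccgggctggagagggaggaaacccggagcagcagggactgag
Sema4d, exact, minus strand of chr13:51748811-51749060: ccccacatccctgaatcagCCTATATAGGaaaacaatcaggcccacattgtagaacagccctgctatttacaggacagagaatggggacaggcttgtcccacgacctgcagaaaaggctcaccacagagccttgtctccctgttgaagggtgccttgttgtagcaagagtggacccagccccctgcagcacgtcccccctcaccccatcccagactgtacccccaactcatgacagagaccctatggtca
Epha2, with 1 mismatch in each, plus strand of chr4:141300971-141301220: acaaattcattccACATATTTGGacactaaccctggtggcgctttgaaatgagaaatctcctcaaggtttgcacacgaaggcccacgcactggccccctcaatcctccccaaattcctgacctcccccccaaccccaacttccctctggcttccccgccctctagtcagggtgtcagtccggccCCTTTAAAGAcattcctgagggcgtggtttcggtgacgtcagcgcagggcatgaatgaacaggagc
Robo1 had a lower and Sema4d a higher FPKM in Srf-knockdown NPCs, so the genes with an exact match did not share a direction. A match is a description of letters, and binding was not measured in these libraries.

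Genes that act around these families were counted by the same rule. Of 30 other guidance receptors and ligands, 14 were above the minimum, 3 of them (21.4%) lower and 1 (7.14%) higher in Srf-knockdown NPCs, beside 6.17% and 6.63% of all genes. Flrt3, a membrane protein that binds Unc5b and Robo1, had an FPKM of 43.8 and 53.1 in control and 21.5 and 24.5 in knockdown cells. Gpc1, a heparan sulphate proteoglycan that binds Slits, had 59.2 and 46.4 in control and 22.8 and 25.8 in knockdown cells, and Flrt2 was the other lower gene. Rgma, the repulsive ligand of Neo1, was higher, at 20.3 and 19.9 in control and 35.3 and 46.4 in knockdown cells. Of 45 intracellular mediators, 34 were above the minimum, 4 of them (11.8%) lower and none higher, beside the same shares of all genes. Lower were Vav3, with 15.6 and 16.7 in control and 4.54 and 5.36 in knockdown cells, and also the Ras GTPase-activating protein Rasa1, the ephrin-cleaving protease Adam10 and Tiam1.

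Markers of other cell types differed between the same libraries. Of 4 smooth muscle markers, 3 were above an FPKM of 2 in control NPCs, and the sum of the 4 was 715 and 642 in control and 24.7 and 43.1 in knockdown cells. Acta2, smooth muscle actin and a known Srf target, had an FPKM of 321 and 322 in control and 6.74 and 8.96 in knockdown cells. The 8 neuron markers summed to 59.9 and 63.1 in control and 126 and 120 in knockdown cells, with Rbfox3 at 0 in all libraries and Dcx at no more than 0.0125. Of the 5 neuron markers above the minimum, Stmn2 was higher, at 19.1 and 18.7 in control and 64.6 and 61.3 in knockdown cells, and none of the others passed the rule, with Snap25 and Syt1 on the lower side of control on both matrices. The 9 mesenchymal markers summed to 2705 and 2531 in control and 2699 and 2764 in knockdown cells. Most of this was Col3a1, with 1730 and 1584 in control and 1897 and 1908 in knockdown cells. Of the 7 mesenchymal markers above the minimum, Dcn and Pdgfrb were higher and none was lower. Thy1 and Lum were not above the minimum in all libraries and went in opposite directions. Thy1 had 5.37 and 3.60 in control and 2.06 and 1.93 in knockdown cells. Lum had 1.36 and 1.22 in control and 3.28 and 3.38 in knockdown cells. The 5 astrocyte markers summed to 34.0 and 44.3 in control and 17.2 and 22.5 in knockdown cells. Of the 2 astrocyte markers above the minimum Slc1a3 was lower, while Aldh1l1 had 5.68 and 7.09 in control and 6.77 and 8.96 in knockdown cells. Summed levels were 18.2 to 19.5 in control and 19.0 to 21.0 in knockdown cells for the 5 oligodendrocyte lineage markers, and at most 0.280 for the 4 microglia markers. The 5 endothelial markers summed to 1.35 and 1.48 in control and 6.03 and 5.97 in knockdown cells. Most of this was Emcn, with 0.806 and 0.844 in control and 5.29 and 4.92 in knockdown cells. The part of these differences in the ratios of the guidance genes was not tested, and in bulk RNA fewer cells of a type and less RNA per cell cannot be told apart.

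Matrix stiffness gave smaller ratios than Srf knockdown. With the 1.1-fold threshold of the study's methods, 11 of the 41 members (26.8%) were higher on the stiff than on the soft matrix in control NPCs, beside 17.9% of all genes, and 7 (17.1%) were lower, beside 16.9%. In Srf-knockdown NPCs 17 members (41.5%) were higher, beside 17.6% of all genes, and 6 (14.6%) were lower, beside 13%. The median log2 ratio of 12 to 0.5 kPa over the members was 0.09 in control and 0.08 in knockdown cells, beside 0.00305 and 0.00640 for all genes. In control NPCs 31 of the 41 ratios were above 0, and in knockdown cells 26 were, counting ratios of any size. The share of all genes with a ratio above 0 was not computed, so nothing is drawn from these 2 counts. These counts rest on differences that are mostly small. Past 1.2-fold 8 members were higher in control and 6 in knockdown cells, the reverse of the order at 1.1-fold. Past 1.5-fold 1 member remained in control, which was Sema7a, and none in knockdown cells. The shares of all genes at these higher thresholds were not computed.

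**Figure D4:**
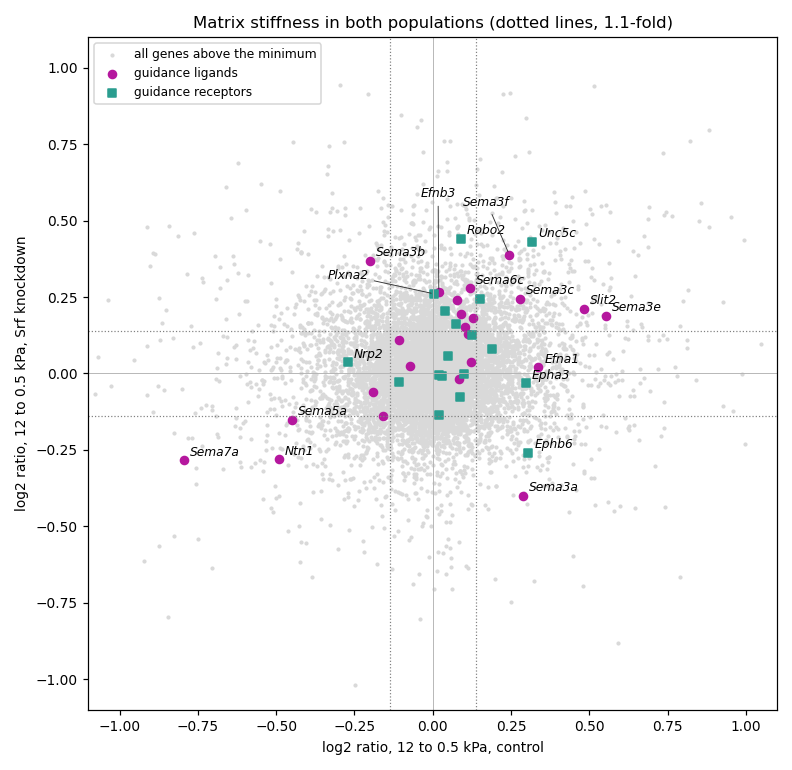
Log2 FPKM ratio of 12 to 0.5 kPa in control (x axis) and Srf-knockdown NPCs (y axis) for the 41 guidance genes above the minimum, with ligands as circles and receptors as squares, over all genes above the minimum in grey; 25 of these lie outside the axes. Dotted lines mark 1.1-fold, and names are given where a ratio exceeds 0.25 in size on either axis, as for Sema7a at -0.80 in control and -0.28 in knockdown cells.

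Among the ligands, Sema3e, Slit2 and Efna1 had the largest ratios above 0 in control NPCs, and Sema7a, Ntn1 and Sema5a the largest below 0. The log2 ratio was 0.55 for Sema3e, 0.48 for Slit2 and 0.34 for Efna1, in control NPCs. Efna1 carries the largest counting error of the 41 members, a standard error of 0.208. On the stiff matrix Sema7a was 1.74-fold, Ntn1 1.41-fold and Sema5a 1.37-fold lower than on the soft matrix in control, and after knockdown they were 1.22-, 1.21- and 1.11-fold lower. In knockdown cells the largest ratios above 0 were those of Robo2 (log2 0.44), Unc5c (0.43) and Sema3f (0.39), and the largest below 0 were those of Sema3a (-0.40), Sema7a (-0.28) and Ntn1 (-0.28).

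Past 1.1-fold, 10 of the 41 members (24.4%) went in the same direction in both populations, beside 8.34% of all genes. Higher on the stiff matrix in both were the class 3 semaphorins Sema3c, Sema3e and Sema3f, the repellent Slit2 and the netrin receptors Unc5b and Unc5c. Lower in both were Efnb2, Ntn1, Sema5a and Sema7a. In 3 members (7.32%), Sema3a, Sema3b and Ephb6, the directions were opposite between the populations, beside 6.01% of all genes. The ratios of stiffness and of Srf knockdown share libraries, so their likeness across members was not computed.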

How the data were processed

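Single-end RNA-seq libraries (TruSeq Stranded mRNA, NextSeq) were trimmed with cutadapt 1.9.1 and mapped by the authors to mm10 with TopHat2 2.1.0 and Bowtie2 2.2.8. Reads with a mapping quality of at least 20 were passed to Cufflinks 2.2.1 with GENCODE version M14. The deposited values are FPKM per gene, which the study's methods call RPKM; counts were not used here, and depth was estimated from the whole-read steps between low values (44.1% of 1101 genes under an FPKM of 0.1, within a tolerance of 0.05).

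Members and lists were chosen with earlier results of these data known. The 63 symbols listed more than once were left out. Log2 ratios were taken without pseudocount or rescaling for genes that exceeded an FPKM of 2 in each of the 4 libraries, with thresholds of 1.5-fold for Srf knockdown and 1.1-fold for stiffness. Full values are given for the highest member of each family, every member past the Srf rule, those above the minimum in both libraries of 1 population only, and the 3 largest ratios in each direction for stiffness. Outside this rule, full values are also given for Plxnb1, Efna2, Efna4, Efnb3 and Ephb3, all on the higher side in knockdown cells. They are likewise given for Plxnd1 and Slit3, both on the lower side. Alternatives were minima of 1 and 5 or none, a pseudocount of 1, scaling to the 75th percentile, centring within 50 bins of GC content and thresholds of 1.1, 1.2, 1.5 and 2-fold. Positions and promoters are from RefSeq (GRCm38). The calculations were tested on simulated data. Python 3.11.15, numpy 2.4.6, pandas 2.3.3 and matplotlib 3.10.9 were used.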

Additional observations from a re-analysis of the deposited data

Results flagged for a closer look

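In 3 members the stiffness ratio passed 1.1-fold in opposite directions in control and Srf-knockdown NPCs, which is 7.32% of the 41 members above the minimum, beside 6.01% of all genes, and so a share near the background. The log2 ratio of 12 to 0.5 kPa in control minus that in knockdown cells was 0.69 for Sema3a, 0.56 for the EphB receptor Ephb6 and -0.57 for Sema3b. With 1 library per condition the difference was not tested.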

How the results depend on the processing

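Of 74 counts and medians recomputed under an alternative, 61 stayed close to the value reported and 13 moved. Without a minimum and with 1 added to each value, the members' median log2 ratio for Srf knockdown on the soft matrix changed sign, from -0.03 to 0.0095. Of 408 ratios of single members, 365 moved by less than 1.1-fold and 43 by more, and 7 small ratios changed sign, all with centring by GC content. Among them, the knockdown ratio of Plxnb2 turned from 0.17 to -0.01 on the soft and from 0.18 to -0.12 on the stiff matrix, and that of Efnb2 from -0.01 to 0.06 on the stiff matrix. The fold threshold mattered most. At 2-fold, 4 members were lower and 2 higher in Srf-knockdown NPCs, and at 1.1-fold 17 were lower and 13 higher. Shares of all genes were computed for the settings of the main results only, so the counts under alternatives have none beside them. For stiffness at 1.2-fold, 4 members were lower and 8 higher on the stiff matrix in control, and in knockdown cells 3 were lower and 6 higher. More members were thus higher in knockdown cells than in control at 1.1-fold but not at 1.2-fold. At 1.5-fold, 1 was lower and 0 higher in control, and 0 were lower and 0 higher in knockdown cells. With no minimum and a pseudocount of 1, 14 members were lower on the stiff matrix in control, because more genes entered. With centring by GC content, 3 members were higher in Srf-knockdown NPCs, and the cause was not tested. Leaving out a replicate was not possible. No paired analysis was possible because there was 1 library per condition.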

Other observations

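Epha5, an ephrin-A receptor, was listed on 2 rows in each library. One row was at 0 throughout, and the other had an FPKM of 5.89 at 0.5 kPa and 7.13 at 12 kPa in control NPCs and of 2.87 and 2.88 in Srf-knockdown NPCs. Members that stayed under the minimum were left out of the counts of lower and higher genes. Some of these 22 had control and knockdown values that did not overlap, at levels under an FPKM of 2. The share of all genes at such levels that separate in this way was not computed, so no count is drawn from them. The members without overlap are named here after their values were seen. Lower in knockdown cells were Sema3g and Unc5a. Sema3g, a secreted class 3 semaphorin, had an FPKM of 0.657 and 0.497 in control and 0.164 and 0.174 in knockdown cells. Unc5a, a netrin receptor, had 0.346 and 0.211 in control and 0.0857 and 0.107 in knockdown cells. Higher in knockdown cells were Ntn4, a laminin-binding netrin of basement membranes, with 0.270 and 0.218 in control and 0.814 and 0.712 in knockdown cells, and Sema5b, with 0.927 and 0.453 in control and 1.92 and 1.58 in knockdown cells. The other higher ones were Plxna4, with 0.645 and 0.948 in control and 1.08 and 1.55 in knockdown cells, and Sema4f, Efna3, Plxnb3 and Ntn5. Of these, Ntn5 rested on at most 7.54 estimated reads in a library.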
